A study of Sus scrofa with 8 samples.

Results

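Lung progenitor organoids (LPO) were compared with definitive endoderm (DE), the endoderm start and the lung-directed end of a differentiation of pig (Sus scrofa) pluripotent stem cells. The members are the 2 libraries labelled for each of these stages, 4 of 8 libraries, and every gene of the deposited table was compared between them. The 2 libraries of anterior foregut endoderm (AFE), the stage between, show where a gene stood on the way and define the genes low or high in AFE. They and the 2 libraries of pluripotent stem cells (PSC) also enter the choice of genes tested, the scaling and the estimate of the spread. The labels give each sample by its stage name and a number, and name no cell line, genotype, growth factor, culture time or animal. They do not say whether both libraries of a stage derive from separate cultures, so p-values reflect the spread between these libraries alone, possibly a technical one.

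Definitive endoderm is the germ layer that lines the gut tube and gives rise to lung, liver, pancreas and intestine. It arises under NODAL and WNT signalling and is held by the transcription factors SOX17, FOXA2, GATA4 and GATA6. Lung forms from the ventral wall of the anterior foregut, where WNT and BMP signals from the mesenchyme and retinoic acid switch on NKX2-1, the factor that marks lung and thyroid fate. The tips of the growing lung buds carry SOX9, their stalks carry SOX2, and FGF from the mesenchyme drives their branching.

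Depth was alike at both ends. Total counts per library were 62426232 and 61748702 in DE and 63210158 and 62929453 in LPO. Counts gather at 4, 8 and 12 (46.4% to 49.7% of all counts from 1 to 12 in these libraries), so 4 counts are taken here as about 1 read pair, and the floors, bounds and counting intervals rest on that reading. More genes were above 0 in LPO (20587 and 20724) than in DE (18621 and 18454). The top 100 genes took up 29.9% and 29.1% of DE counts and 22.8% and 22.9% of LPO counts. Pearson r of log2 CPM across genes, none of them a replicate of another, was 0.972 between the DE libraries, 0.982 between the LPO libraries and 0.810 to 0.819 between the stages. Of the genes, 85.4% lay within 2-fold between the DE libraries and 91.3% between the LPO libraries.

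Levels per library are CPM, counts scaled to library size after TMM, which lines up the bulk of genes between libraries. TMM factors were 0.926 and 0.924 in DE and 1.27 and 1.26 in LPO, so CPM lowers LPO by 1.37-fold against DE relative to scaling by total count alone. FPKM, the authors' value per transcript length, is not scaled this way. It sets levels of different genes side by side, and serves for summed levels of gene lists and for alternative tests. FPKM values set between DE and LPO therefore lack the TMM scaling. Calls are those with an adjusted p (Benjamini-Hochberg, over 19346 genes) under 0.05 in edgeR's quasi-likelihood test. Where both libraries of a stage hold 0 counts, the fold is a lower bound against a floor of 3 read pairs (12 counts) per library. Where a stage holds 1 to 3 read pairs in all, a count ratio with its 95% counting interval stands in for the fold. Bounds and intervals cover counting error only. In bulk samples, fewer cells of a type and less RNA per cell cannot be told apart.

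Most genes differed between the ends. Of 19346 genes tested, 12123 were called (62.7%), 6114 higher in LPO (31.6%) and 6009 lower (31.1%), and in 16382 (84.7%) no DE library overlapped an LPO library. By 2-fold or more, 4705 were higher (24.3%) and 4177 lower (21.6%). The median log2 change over all genes tested was 0.13. Of 16127 protein-coding genes, 33.3% were higher and 35.3% lower, whereas of 2851 long noncoding RNA genes, 24.4% were higher and 8.73% lower. The even split holds for TMM-scaled counts, where 50.4% of called genes were higher in LPO. With limma on log2 FPKM, which has no such scaling, 64.9% to 65.2% of called genes were higher, and the median change reached 0.42 with a pseudocount of 0.1.

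**Figure D1:**
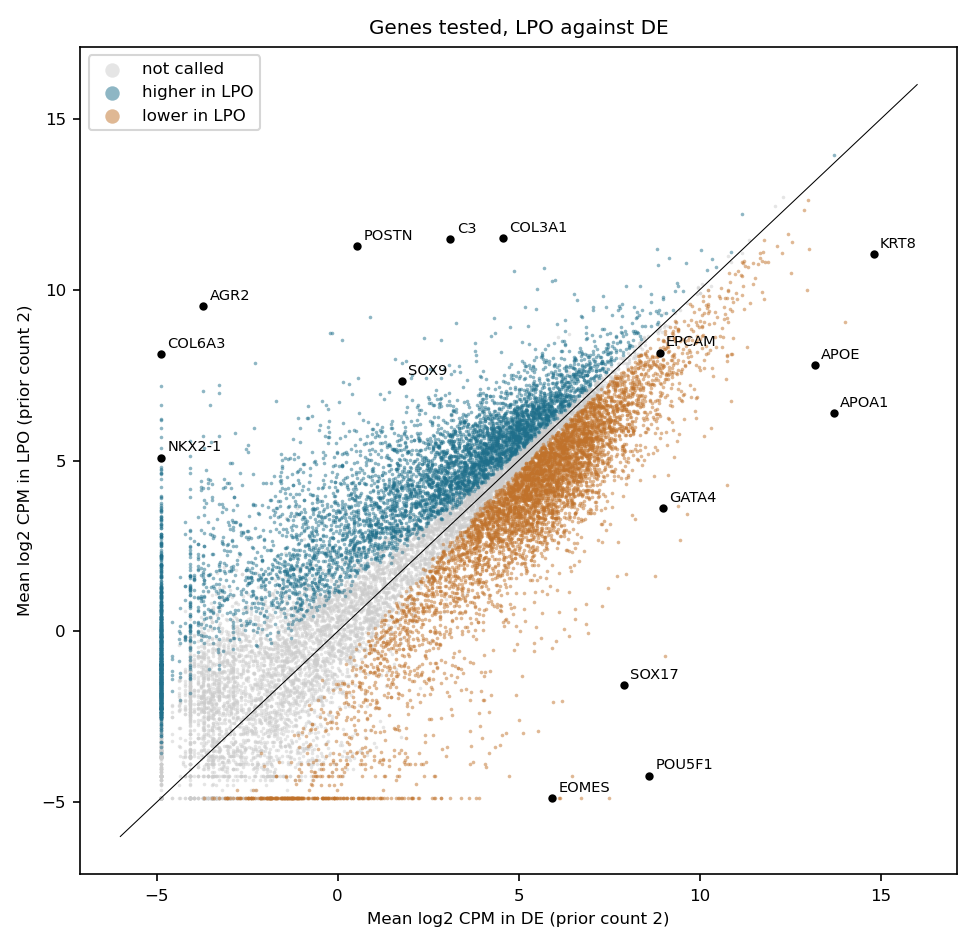
Mean log2 CPM (prior count 2) of the genes tested in DE (x axis) and LPO (y axis), with genes called higher in LPO in blue, lower in orange and not called in grey; the line marks equal levels. Points on the vertical and horizontal edges are genes at 0 in both libraries of DE or LPO. NKX2-1, COL6A3 and AGR2 sit at or near 0 in DE, and EOMES and POU5F1 at or near 0 in LPO.

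SOX9 and NKX2-1, which mark the lung-directed stage, were higher in LPO, and SOX17 and APOA1, which mark the endoderm stage here, were higher in DE. In every gene said here to have risen or fallen, all LPO libraries lay on the same side of all DE libraries, as they did in 84.7% of all genes. SOX9 (the bud-tip factor, chromosome 12, 8642158 to 8647315 in the file, whose build no source used here names) was at 4.12 and 2.82 CPM in DE, 16.9 and 15.8 in AFE and 154 and 164 in LPO, 45.8-fold higher in LPO than in DE (log2 change 5.52, SE 0.181, adjusted p = 2.97e-07). It climbed at both steps, and no libraries of neighbouring stages overlapped. NKX2-1 (chromosome 7, 63487807 to 63491575) was at 0 and 0 CPM in DE, 20.2 and 19.5 in AFE and 33.7 and 34.2 in LPO, at least 163-fold higher (adjusted p = 1.17e-06). In DE it was not detected at this depth, and on the FPKM scale it reached 18.8 ± 0.148 FPKM in LPO (SD, n = 2) beside 52.7 ± 2.37 FPKM for SOX9. SOX17 (chromosome 4, 76854150 to 76857148) was at 251 and 228 CPM in DE, 16.5 and 15.04 in AFE and 0.399 and 0.227 in LPO, 759.7-fold lower in LPO (log2 change −9.57, SE 0.314, adjusted p = 2.97e-07). APOA1 (the chief apolipoprotein of HDL particles, chromosome 9, 44216392 to 44218713) was at 13444 and 13162 CPM in DE, 256 and 272 in AFE and 80.9 and 85.8 in LPO, 159.6-fold lower (log2 change −7.32, SE 0.0775, adjusted p = 1.08e-08). Both fell at each step, with AFE libraries between the ends and no overlap.

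**Figure D2:**
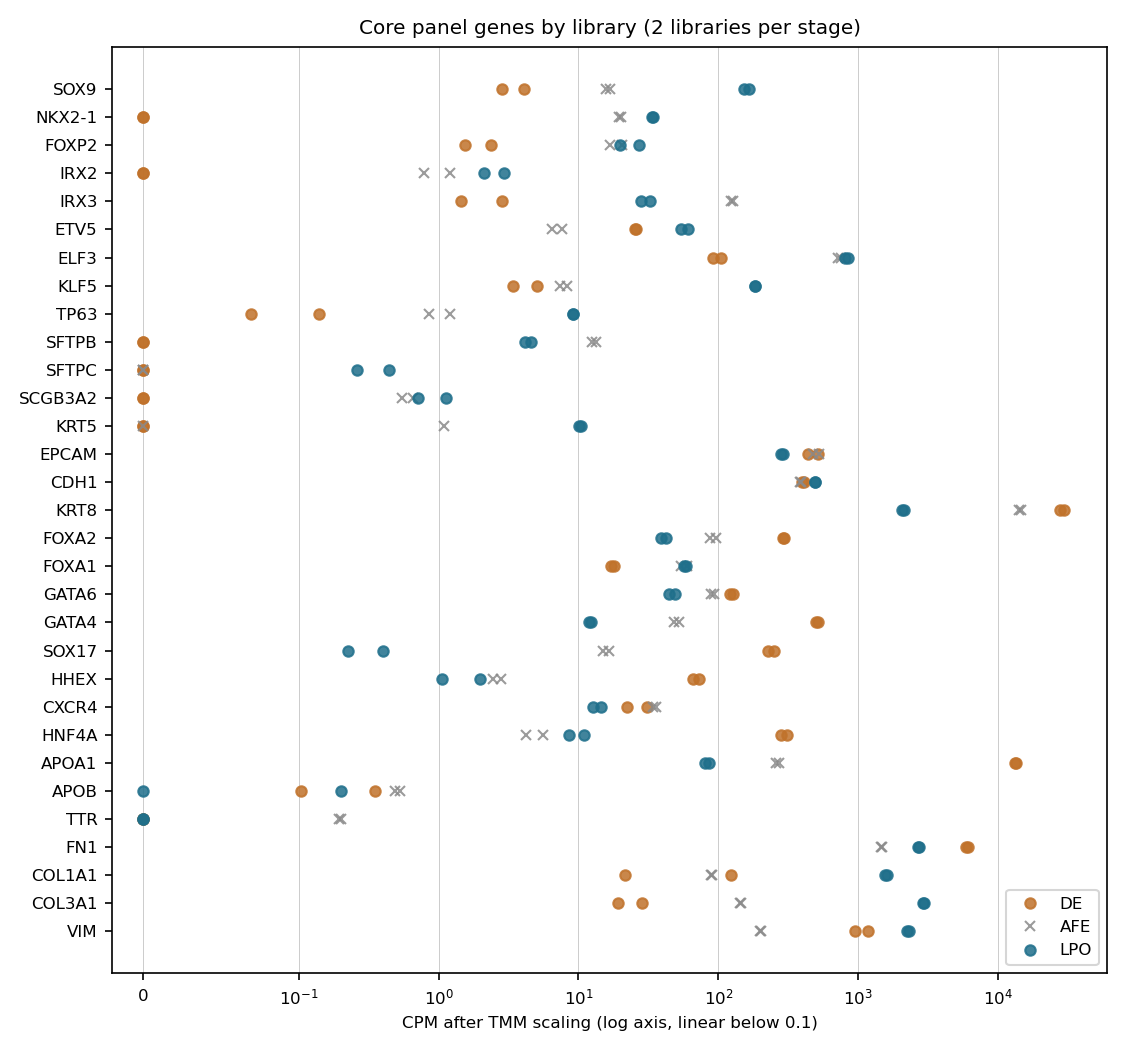
CPM of the core panel in each library of DE (orange), AFE (grey crosses) and LPO (blue) on a log axis that is linear below 0.1; each mark is 1 library. SOX9 rises from 2.82 and 4.12 to 154 and 164 CPM, whereas SOX17 and APOA1 fall at both steps. KRT5 and SFTPC sit at 0 in DE, and the 2 DE marks of COL1A1 lie far apart.

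Early lung and airway progenitor factors were mostly higher in the organoids, among them SOX2, KLF5, ELF3 and SOX9. Of 32 tested, 20 rose and 8 fell (62.5% and 25.0%, against 31.6% and 31.1% of all genes), with a median log2 change of 2.24 against 0.13 overall. SOX2, the factor of bud stalks and foregut, was at 0.121 and 0.0701 CPM in DE, 5.35 and 6.603 in AFE and 30.3 and 30.7 in LPO (higher, count ratio 292 with interval 99.7 to 1418, adjusted p = 5.55e-07). KLF5, an epithelial factor needed for lung maturation, was at 5.05 and 3.38 CPM in DE, 8.32 and 7.403 in AFE and 183 and 183 in LPO (43.4-fold higher, adjusted p = 3.46e-07). ELF3, an ETS factor of barrier epithelia, was at 104 and 91.5 CPM in DE, 719 and 748 in AFE and 810.3 and 839.5 in LPO (8.43-fold higher, adjusted p = 2.46e-06). These 3 genes took different paths: KLF5 was mostly gained after AFE, whereas ELF3 stood at 719 and 748 CPM in AFE already.

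FOXP1, FOXP2 and FOXP4, repressors of the lung epithelium, all rose. FOXP4 was at 120.3 and 153 CPM in DE and 357 and 369.6 CPM in LPO (2.66-fold higher, adjusted p = 1.33e-05). FOXP2 was at 1.54 and 2.37 CPM in DE and 27.3 and 19.7 CPM in LPO (12.04-fold higher, adjusted p = 1.39e-05), while FOXP1 rose by less (1.899-fold higher, adjusted p = 6.45e-04). Among the Iroquois factors, which pattern the bronchial epithelium, IRX3 was at 2.85 and 1.44 CPM in DE, 122 and 128 in AFE and 28.1 and 32.5 in LPO (14.1-fold higher, adjusted p = 1.93e-05), highest in AFE, and IRX2 was at 0 and 0 CPM in DE and 2.93 and 2.13 CPM in LPO (at least 12.1-fold higher, adjusted p = 3.36e-04). IRX1 ran the other way, at 9.77 and 13.3 CPM in DE and 1.52 and 2.56 CPM in LPO (5.66-fold lower, adjusted p = 4.55e-04). TBX5 and TBX4, factors of the lung-bud mesenchyme, were at 0 and 0 CPM in DE and 8.78 and 8.396 CPM in LPO (at least 41.1-fold higher, adjusted p = 6.69e-05) and at 0.294 and 0.2803 CPM in DE and 4.04 and 3.37 CPM in LPO (12.8-fold higher, adjusted p = 0.00102). SHH, the signal from bud epithelium to mesenchyme, was at 0.138 and 0.596 CPM in DE, 14.1 and 14.2 in AFE and 16.3 and 18.4 in LPO (47.1-fold higher, adjusted p = 1.24e-04). Its log2 change was 5.56, or 4.86 without DE replicate 1 and 6.97 without DE replicate 2. WNT7B, a WNT ligand of lung epithelium, was at 0.363 and 0.526 CPM in DE and 5.13 and 5.32 CPM in LPO (11.7-fold higher, adjusted p = 5.30e-04). The members that fell included MYCN, which drives growth of bud-tip progenitors, at 75.9 and 56.5 CPM in DE, 139 and 140.2 in AFE and 10.03 and 9.101 in LPO (6.92-fold lower, adjusted p = 1.81e-06). ID2, a bud-tip marker, was at 279.6 and 298 CPM in DE, 56.7 and 64.1 in AFE and 85.6 and 88.7 in LPO (3.32-fold lower, adjusted p = 2.03e-06). Also lower were GATA6, BMP4, GRHL2, CEBPA and CPM, the carboxypeptidase used to sort lung progenitors, which was at 5.67 and 5.66 CPM in DE and 0.362 and 0.352 CPM in LPO (15.8-fold lower, adjusted p = 1.23e-04). Among these markers of lung progenitors, then, SOX9 and NKX2-1 rose while ID2 and CPM fell.

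Genes of airway cells appeared in LPO at low levels, apart from AGR2. Of 23 tested, 13 rose and 6 fell (median log2 change 2.37). AGR2, a disulfide isomerase of mucus-making cells, was at 0.138 and 0 CPM in DE, 10.8 and 10.9 in AFE and 728 and 740.4 in LPO (higher, count ratio 10541 with interval 2918 to 87047, adjusted p = 3.13e-07). The basal-cell factor TP63 was at 0.0692 and 0.1402 CPM in DE, 0.849 and 1.2 in AFE and 9.12 and 9.15 in LPO (higher, count ratio 87.3 with interval 29.6 to 425, adjusted p = 1.12e-05). The basal keratin KRT5 was at 0 and 0 CPM in DE, 1.09 and 0 in AFE and 10.1 and 10.4 in LPO (at least 48.9-fold higher, adjusted p = 0.00816). The goblet-cell product CLCA1 was at 0 and 0 CPM in DE, 0 and 0 in AFE and 9.51 and 9.92 in LPO (at least 46.5-fold higher, adjusted p = 1.62e-04), with 0 counts in DE and in AFE alike, and the cobalamin carrier TCN1 at 0 and 0 CPM in DE, 0 and 0 in AFE and 10 and 8.98 in LPO (at least 45.4-fold higher, adjusted p = 1.75e-04). CFTR, the chloride channel of airway epithelium, was at 0.363 and 0 CPM in DE, 2.33 and 1.37 in AFE and 19.04 and 18.4 in LPO (101-fold higher, adjusted p = 0.00218), with DE at 0 in replicate 2 (log2 change 6.66, a fitted 13.1 without DE replicate 1 and 5.7 without DE replicate 2). The secretoglobin SCGB3A2 was at 0 and 0 CPM in DE and 1.13 and 0.718 CPM in LPO (at least 4.43-fold higher, adjusted p = 0.00285). The sodium channel subunit SCNN1B fell, at 9.097 and 10.3 CPM in DE, 29.8 and 28.8 in AFE and 1.77 and 1.79 in LPO (5.44-fold lower, adjusted p = 0.00268), and the ciliated-cell gene TPPP3 fell with it (2.85-fold lower, adjusted p = 9.07e-06). FOXJ1, the master factor of motile cilia, was at 3.22 and 3.35 CPM in DE, 0.669 and 0.784 in AFE and 0.586 and 0.982 in LPO (4.18-fold lower, adjusted p = 0.0121), a call that ended without LPO replicate 1 (log2 change −1.76, adjusted p = 0.0884). Without DE replicate 1 the fitted log2 change of AGR2 was 18.4, with DE at 0, and without DE replicate 2 it was 12.37 (13.32 with all libraries). That of TP63 was 7.02 without DE replicate 2 (6.42 with all libraries).

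Surfactant and alveolar genes showed no shared direction, with 5 of 18 higher and 4 lower (3 higher without DE replicate 2, LPO replicate 1 or LPO replicate 2). With all libraries these were 27.8% and 22.2% of the list, under the 31.6% and 31.1% of all genes. Setting genes at 0 to their bound moved the list's median log2 change from 0.48 to 0.06. SFTPB, a surfactant protein that secretory cells also make, was at 0 and 0 CPM in DE, 13.4 and 12.6 in AFE and 4.61 and 4.18 in LPO (at least 21.05-fold higher, adjusted p = 2.20e-05), so its AFE level exceeded that of LPO. SFTPC, which alveolar type 2 cells make, had 0 counts in DE and AFE and reached 0.262 and 0.441 CPM in LPO, against a floor of 0.150 and 0.151. Its call (at least 1.68-fold higher, adjusted p = 0.0283) ended without any single DE or LPO library (adjusted p = 0.114 to 0.221), with the replicate block and with no filter. LPCAT1, which makes surfactant lipid, fell (123 and 150.2 CPM in DE and 38.7 and 36.3 CPM in LPO, 3.65-fold lower, adjusted p = 2.18e-06), and so did PDPN, a membrane protein of alveolar type 1 cells (158 and 202 CPM in DE and 75.4 and 72.4 CPM in LPO, 2.43-fold lower, adjusted p = 6.43e-05).

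Patterning genes of the foregut and pharynx mostly rose, and HOX genes made up 10 of the 19 that did. Of 30 tested, 19 rose and 5 fell (median log2 change 4.77). All 10 tested HOX members of the list rose. HOXA5, a HOX gene needed for lung and trachea formation, was at 0.3805 and 0.193 CPM in DE, 1.75 and 1.65 in AFE and 102 and 114 in LPO (372-fold higher, adjusted p = 3.38e-07). HOXB6, of the HOXB cluster, was at 8.28 and 7.08 CPM in DE, 7.31 and 7.74 in AFE and 196 and 209.6 in LPO (26.4-fold higher, adjusted p = 3.46e-07). Both stayed low in AFE and were high only in the LPO libraries. The members that fell included FOXA2, HHEX, OTX2 and NKX2-5. OTX2, a head and anterior endoderm factor, was at 129 and 85.8 CPM in DE, 3.92 and 3.17 in AFE and 0 and 0 in LPO (at least 714-fold lower, adjusted p = 7.47e-07). It had lost most of its level by AFE.

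The endoderm factors of the start were mostly lost at the end. Of 26 tested, 18 fell and 3 rose (69.2% and 11.5%), with a median log2 change of −2.78. EOMES, which drives endoderm out of the primitive streak, was at 63.2 and 58.4 CPM in DE, 0 and 0 in AFE and 0 and 0 in LPO (at least 404-fold lower, adjusted p = 8.28e-07). GATA4, shared by endoderm and heart, was at 496 and 519 CPM in DE, 52.1 and 48.5 in AFE and 11.96 and 12.4 in LPO (41.7-fold lower, log2 change −5.38, SE 0.194, adjusted p = 4.00e-07). HNF4A, a hepatic nuclear receptor also found in visceral endoderm, was at 279 and 309 CPM in DE, 5.598 and 4.19 in AFE and 8.62 and 10.9 in LPO (30.1-fold lower, adjusted p = 1.92e-05). These genes did not go down in the same way: EOMES was already at 0 in AFE, GATA4 fell at both steps, and HNF4A had reached its low level by AFE.

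The pioneer factors FOXA2 and FOXA1 went opposite ways. FOXA2, which opens endoderm chromatin, was at 297 and 292 CPM in DE, 96.8 and 87.1 in AFE and 39.1 and 42.1 in LPO (7.25-fold lower, adjusted p = 4.02e-07). FOXA1, which shares its target sites, rose instead, at 17.1 and 17.9 CPM in DE, 59.6 and 53.8 in AFE and 57.2 and 58.7 in LPO (3.31-fold higher, adjusted p = 7.43e-06). On the FPKM scale FOXA1 stood at 12.3 ± 0.184 FPKM and FOXA2 at 21.4 ± 1.04 FPKM in LPO. The other members that rose were KIT, the stem cell factor receptor, at 66.98 and 56.1 CPM in DE, 30.99 and 27.6 in AFE and 179.7 and 166 in LPO (2.81-fold higher, adjusted p = 1.55e-05), and FZD8, a WNT receptor (3.72-fold higher, adjusted p = 0.00890; log2 change 2.73 without DE replicate 1 and 1.9 with all libraries). The chemokine receptor CXCR4, a sorting marker of endoderm, was at 30.9 and 22.1 CPM in DE, 35.6 and 34.05 in AFE and 14.6 and 12.6 in LPO (1.95-fold lower, adjusted p = 0.00176). CLDN6, an embryonic tight-junction claudin, was at 1151 and 1370.1 CPM in DE, 419 and 428 in AFE and 63 and 60.3 in LPO (20.5-fold lower, adjusted p = 1.41e-07). CER1, a secreted NODAL inhibitor of early endoderm, was near the floor in both stages, at 0.692 and 0.4205 CPM in DE and 0.349 and 0.403 CPM in LPO.

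POU5F1 and LIN28A, pluripotency genes still present in DE, were at a few read pairs or fewer in LPO. POU5F1, the core pluripotency regulator, was at 390.5 and 383 CPM in DE, 1.03 and 0.8003 in AFE and 0 and 0.0504 in LPO (lower, count ratio 15436 with interval 2769.9 to 609747, adjusted p = 8.50e-08). LIN28A, which blocks let-7 maturation, was at 41.4 and 29.5 CPM in DE, 10.5 and 9.44 in AFE and 0.0748 and 0.113 in LPO (369-fold lower, adjusted p = 5.55e-07). Of 19 tested, 8 fell and 2 rose, SOX2 and KLF4, which are shared with epithelia. DNMT3B, which sets DNA methylation anew, was at 98.5 and 108 CPM in DE, 45.8 and 45.1 in AFE and 22.2 and 20.1 in LPO (4.87-fold lower, adjusted p = 2.65e-07). TERT, the catalytic subunit of telomerase, was at 53.9 and 50.2 CPM in DE, 36.5 and 35.9 in AFE and 11.7 and 13.1 in LPO (4.21-fold lower, adjusted p = 1.94e-06). POU5F1 without LPO replicate 1 had a log2 change of −12.87, against −13.8 with all libraries, and without LPO replicate 2 a fitted −17.4, with LPO at 0.

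APOA1 and APOE, among the most abundant genes of DE, were lower in LPO but still present there. APOE, a lipid carrier, was at 9257 and 9342 CPM in DE, 1483 and 1594 in AFE and 214 and 229 in LPO (41.97-fold lower, log2 change −5.39, SE 0.0838, adjusted p = 3.17e-08). APOC3, a lipoprotein component of liver and gut, was at 17.8 and 12.5 CPM in DE, 0 and 0 in AFE and 0 and 0 in LPO (at least 101-fold lower, adjusted p = 1.01e-04). Together, KRT8, KRT18, KRT19, APOA1 and APOE held 6.82% and 7.19% of all counts in DE, 2.73% and 2.81% in AFE and 0.490% and 0.511% in LPO. Of 28 plasma protein genes tested, 14 fell and 2 rose (50.0% and 7.14%; median log2 change −1.37), or 1 rose without LPO replicate 2 or AFE replicate 1. Other chief products of liver were not among the abundant genes: ALB stood at 0.294 and 0 CPM in DE and 0.499 and 0.6797 CPM in LPO, and TTR had 0 counts in all 4 libraries. MTTP, which loads lipid onto apolipoprotein B, peaked in AFE, at 17.3 and 14.8 CPM in DE, 127 and 129 in AFE and 0.985 and 1.01 in LPO (16.1-fold lower in LPO than in DE, adjusted p = 2.92e-07). The members that rose were C3, the central complement protein, at 12.99 and 5.71 CPM in DE, 36.8 and 35.4 in AFE and 2856 and 2883 in LPO (307-fold higher, adjusted p = 1.22e-06), and F5, a clotting factor, whose call (log2 change 2.57, adjusted p = 0.0210) ended without DE replicate 2 (log2 change 2.08), LPO replicate 2 (2.38) or AFE replicate 1 (2.57). Without DE replicate 1 the change of F5 was 3.36. The log2 change of C3 was 8.97 without DE replicate 1 and 8.26 with all libraries.

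Genes of primitive and parietal endoderm, the extraembryonic relatives of definitive endoderm, were also mostly lower, 14 of 23 against 6 higher (median log2 change −1.30). Besides SOX17, GATA4, HNF4A and APOE, which definitive endoderm shares, they included PTH1R, a hormone receptor of parietal endoderm, at 124 and 129.9 CPM in DE, 1.45 and 1.43 in AFE and 11.4 and 11.9 in LPO (10.9-fold lower, adjusted p = 2.83e-05). FST, an activin inhibitor, was at 76.3 and 118 CPM in DE, 1.44 and 1.15 in AFE and 1.67 and 1.44 in LPO (62.3-fold lower, adjusted p = 7.16e-07). IHH, a Hedgehog ligand of gut and visceral endoderm, was at 36.6 and 52.8 CPM in DE, 55.2 and 58.6 in AFE and 2.05 and 2.37 in LPO (20.3-fold lower, adjusted p = 4.25e-06). DAB2, an endocytic adaptor of visceral endoderm, was at 72 and 100.3 CPM in DE, 9.22 and 9.17 in AFE and 28.03 and 27.9 in LPO (3.08-fold lower, adjusted p = 7.01e-05). PDGFRA, which marks primitive endoderm and mesenchyme alike, did not pass the test, at 72.8 and 59.5 CPM in DE, 8.503 and 7.12 in AFE and 73.9 and 81.9 in LPO (log2 change 0.24, SE 0.261, adjusted p = 0.459), but was called higher with limma on log2 FPKM (log2 change 0.63 with a pseudocount of 1, adjusted p = 0.00293). SPARC, a matrix protein of parietal endoderm and stroma, rose (468 and 447 CPM in DE and 1694 and 1704 CPM in LPO, 3.71-fold higher, adjusted p = 1.89e-07).

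The epithelial adhesion genes CDH1 and EPCAM changed by less than 2-fold, whereas the keratins named here changed by more. E-cadherin CDH1 was at 393 and 412 CPM in DE, 393 and 383 in AFE and 488 and 493 in LPO (1.22-fold higher, adjusted p = 0.00205). The adhesion protein EPCAM was at 437 and 514 CPM in DE, 526 and 474 in AFE and 279 and 291 in LPO (1.67-fold lower, adjusted p = 1.84e-04). The simple-epithelial keratins fell much further, KRT8 at 27684 and 29354 CPM in DE and 2059 and 2135 CPM in LPO (13.6-fold lower, log2 change −3.77, SE 0.0582, adjusted p = 3.17e-08). Its partner KRT18 was at 15574 and 17642 CPM in DE and 516 and 559 CPM in LPO (30.9-fold lower, adjusted p = 3.17e-08). KRT19 fell besides (7667 and 8311 CPM in DE and 989 and 1042 CPM in LPO, 7.86-fold lower, adjusted p = 9.75e-08), while KRT7, of ducts and lung, rose (48.2 and 55.8 CPM in DE and 106 and 107 CPM in LPO, 2.05-fold higher, adjusted p = 3.27e-05). KRT17, a keratin of basal and stressed epithelium, was at 0 and 0 CPM in DE, 0.653 and 0 in AFE and 26.6 and 26.5 in LPO (at least 127-fold higher, adjusted p = 0.00139). KRT23, an inducible acidic keratin, was at 0 and 0 CPM in DE, 0.392 and 0.484 in AFE and 11.4 and 11.6 in LPO (at least 55.2-fold higher, adjusted p = 2.25e-05). Neither had a count in DE. Over the whole list of 41 simple epithelium and junction genes, 15 rose and 20 fell (36.6% and 48.8%), with a median log2 change of −0.02, which turned to 0.13 with upper-quartile scaling and 0.43 with limma on log2 FPKM at a pseudocount of 0.1.

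The claudins, which set the tightness of the junction, changed places. CLDN1, a barrier claudin, was at 2.91 and 4.54 CPM in DE, 11.8 and 14.9 in AFE and 119 and 117 in LPO (31.8-fold higher, adjusted p = 9.63e-07). CLDN18, a claudin of lung and stomach, was at 0 and 0 CPM in DE, 0.326 and 0.133 in AFE and 10.8 and 11.7 in LPO (at least 53.8-fold higher, adjusted p = 8.23e-05). CLDN4, a claudin of simple epithelia, was at 601 and 611 CPM in DE, 902 and 948 in AFE and 246 and 247 in LPO (2.46-fold lower, adjusted p = 7.47e-07). CLDN7, another of simple epithelia, was at 182 and 180.2 CPM in DE, 194 and 207 in AFE and 43.5 and 53.5 in LPO (3.73-fold lower, adjusted p = 2.48e-06). So CLDN1 and CLDN18, scarce or at 0 in DE, were gained, and CLDN4 and CLDN7, plentiful in DE and AFE, were reduced. MAL2, an apical transport protein, was at 2.84 and 2.63 CPM in DE, 19.7 and 23.9 in AFE and 59.7 and 63.3 in LPO (22.5-fold higher, adjusted p = 3.35e-07). The proteases PRSS8 and ST14, which act on epithelial surfaces, fell (4.89-fold lower, adjusted p = 5.29e-07, and 2.82-fold lower, adjusted p = 9.85e-07). Genes of fibroblasts moved along with these changes (30 of 36 higher, summed FPKM 566 and 464 in DE and 3614 and 3673 in LPO), and their part in them was not tested.

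Fibroblast and mesenchyme genes rose nearly throughout. Of 36 tested, 30 rose and 3 fell (83.3% and 8.33%), with a median log2 change of 4.67. Of the list, COL6A3, ELN, MEOX2 and TNMD were at 0 in both DE libraries. POSTN, periostin, was at 1.42 and 1.44 CPM in DE, 27.4 and 28.2 in AFE and 2482 and 2459 in LPO (1728-fold higher, log2 change 10.76, SE 0.0825, adjusted p = 1.08e-08). COL3A1, the fibrillar collagen of soft tissue, was at 28.5 and 19.3 CPM in DE, 144 and 146 in AFE and 2922 and 2946 in LPO (123-fold higher, log2 change 6.94, SE 0.284, adjusted p = 6.44e-07). COL6A3, a chain of the microfibrillar collagen VI, was at 0 and 0 CPM in DE, 5.04 and 4.602 in AFE and 269 and 282 in LPO (at least 1318-fold higher, adjusted p = 2.47e-07). The receptor PDGFRB, of pericytes and fibroblasts, was at 15.5 and 12.3 CPM in DE, 10.6 and 11.6 in AFE and 341 and 359 in LPO (25.2-fold higher, adjusted p = 4.89e-07). PRRX1, a factor of limb and connective tissue mesenchyme, was at 0.225 and 0.123 CPM in DE and 62.9 and 61.9 CPM in LPO (354-fold higher, adjusted p = 2.88e-07). COL1A1 differed between the DE libraries, at 123 and 21.7 CPM in DE, 89.8 and 88.3 in AFE and 1556 and 1609 in LPO (21.9-fold higher, adjusted p = 7.60e-04). Its log2 change was 6.19 without DE replicate 1, 3.71 without DE replicate 2 and 4.45 with all libraries. The members that fell were N-cadherin CDH2, at 273 and 289.9 CPM in DE, 76.8 and 78.2 in AFE and 60.5 and 62.98 in LPO (4.56-fold lower, adjusted p = 2.93e-07), the matrix protein TNC, whose call ended with limma on log2 FPKM (log2 change −0.81, or −0.35 with a pseudocount of 0.5), and MFAP5. The call of MFAP5 (log2 change −5.05) ended without DE replicate 1 (log2 change −4.69), DE replicate 2 (−5.31) or LPO replicate 1 (−4.08), and without LPO replicate 2 it was a fitted −10.57. VIM, the mesenchymal filament, was at 1165 and 949 CPM in DE, 199 and 202 in AFE and 2246 and 2312 in LPO (2.16-fold higher, adjusted p = 1.79e-05).

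The basement membrane changed its laminins. LAMA1, the alpha chain of early embryos, was at 326 and 337 CPM in DE, 78.7 and 74.8 in AFE and 33.4 and 36.7 in LPO (9.46-fold lower, adjusted p = 2.00e-07). LAMA3 and LAMB3, chains of the laminin that anchors stratified and airway epithelium, rose: LAMA3 was at 0.1902 and 0 CPM in DE, 2.77 and 2.87 in AFE and 99.05 and 99.3 in LPO (higher, count ratio 949.6 with interval 325 to 4607, adjusted p = 4.99e-06). The beta chain LAMB3 was at 1.54 and 0.736 CPM in DE, 7.26 and 9.05 in AFE and 156 and 160.0 in LPO (139-fold higher, adjusted p = 2.39e-06). Both were higher in AFE than in DE and higher again in LPO. LAMA4, a chain of vessels and mesenchyme, rose as well (0.951 and 0.683 CPM in DE and 71.9 and 71.05 CPM in LPO, 87.2-fold higher, adjusted p = 4.14e-06). LAMC1 did not pass the test (167 and 173 CPM in DE and 177 and 179 CPM in LPO, log2 change 0.07, SE 0.06804, adjusted p = 0.418). It was called higher with upper-quartile scaling (0.22), the 5 FPKM filter (0.36) and limma on log2 FPKM (0.49 with a pseudocount of 1). COL18A1, a basement membrane collagen, was at 2481 and 2580.1 CPM in DE, 2165 and 2294 in AFE and 312 and 324 in LPO (7.95-fold lower, adjusted p = 7.57e-08), and the collagen IV chains COL4A1 and COL4A2 fell (2.47-fold lower, adjusted p = 2.26e-06, and 2.27-fold lower, adjusted p = 2.29e-06). Fibronectin FN1 was at 6061 and 5849 CPM in DE, 1470.2 and 1458 in AFE and 2707 and 2683 in LPO (2.21-fold lower, adjusted p = 1.19e-06). Its receptor chain ITGA5 was at 478 and 516 CPM in DE, 155 and 150.3 in AFE and 128 and 125 in LPO (3.93-fold lower, adjusted p = 3.30e-07). For LAMB3 the log2 change without DE replicate 1 was 7.74 (7.11 with all libraries) and that of LAMA3 a fitted 15.51 (9.99), while without DE replicate 2 that of LAMA3 was 9.03. ITGB6, an integrin chain of injured and lung epithelium that activates TGF-beta, was at 0 and 0 CPM in DE, 4.798 and 3.37 in AFE and 29.3 and 26.5 in LPO (at least 134-fold higher, adjusted p = 6.57e-06). Over the list, 11 of 27 rose and 11 fell, with a median log2 change of 0.00 (0.15 with upper-quartile scaling).

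**Figure D3:**
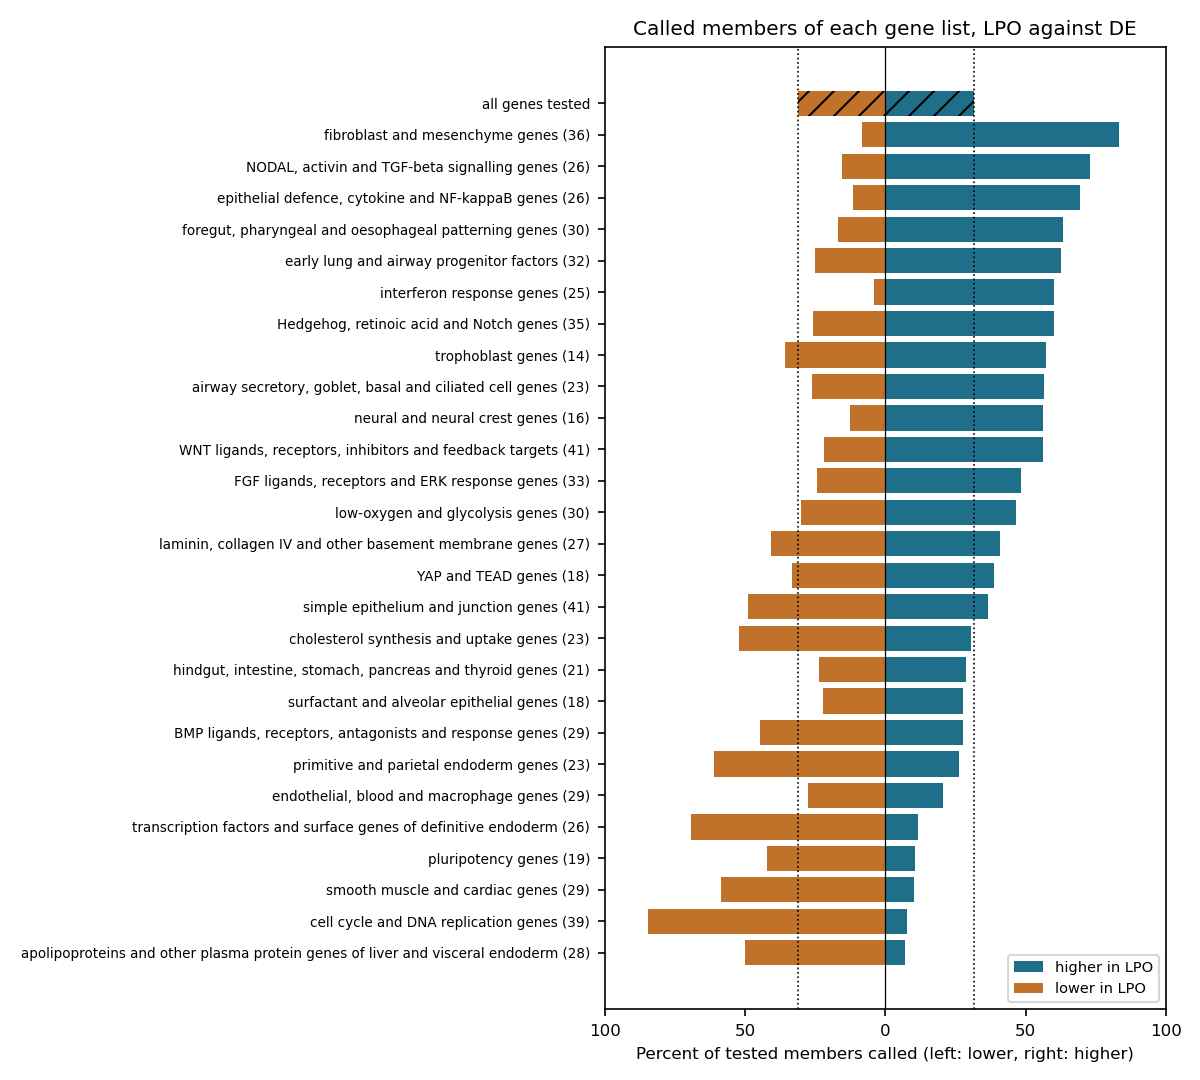
Percent of the tested members of each gene list called higher in LPO (blue, right) or lower (orange, left), with the number tested in brackets; the hatched bar and dotted lines give all genes tested (31.6% higher, 31.1% lower). Fibroblast and mesenchyme genes reach 83.3% higher, and cell cycle and DNA replication genes 84.6% lower.

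Genes of other lineages went both ways. Of 29 smooth muscle and cardiac genes, 17 fell and 3 rose (58.6% and 10.3%, against 31.1% and 31.6% of all genes). NPPA, the atrial natriuretic peptide, was at 81.1 and 42.5 CPM in DE, 0 and 0 in AFE and 0 and 0 in LPO (at least 411-fold lower, adjusted p = 8.49e-05). TBX20, a cardiac factor, was at 13.1 and 12.5 CPM in DE, 0.1795 and 0.2001 in AFE and 0.224 and 0.302 in LPO (48.3-fold lower, adjusted p = 1.53e-05). CNN1, a calponin of smooth muscle, fell as well, at 34 and 22.3 CPM in DE, 17.8 and 15.8 in AFE and 7.03 and 8.53 in LPO (3.61-fold lower, adjusted p = 4.23e-04). The 3 that rose were the smooth muscle genes MYLK, a myosin kinase, at 0.1902 and 0.491 CPM in DE, 2.38 and 3.07 in AFE and 27.7 and 27.5 in LPO (80.7-fold higher, adjusted p = 4.52e-06; log2 change 6.33, or 7.19 without DE replicate 2), DES, desmin (1.71-fold higher, adjusted p = 8.55e-05), and TAGLN, transgelin (1.35-fold higher, adjusted p = 0.00486). Of 29 endothelial, blood and macrophage genes, 6 rose and 8 fell (20.7% and 27.6%, both under the shares of all genes). ALAS2, the erythroid enzyme of haem synthesis, was at 77.2 and 75.8 CPM in DE, 2.51 and 4.87 in AFE and 0.786 and 1.31 in LPO (72.9-fold lower, adjusted p = 1.27e-05). ETV2, which specifies vessels, was at 16.8 and 15.8 CPM in DE, 1.94 and 1.35 in AFE and 0.549 and 0.629 in LPO (27.6-fold lower, adjusted p = 0.00247). Both were already low in AFE. RUNX1, a blood factor also used by epithelia, rose, at 3.27 and 2.38 CPM in DE, 0.441 and 1.57 in AFE and 43.4 and 38.1 in LPO (14.4-fold higher, adjusted p = 4.14e-04). CD68, a lysosomal protein of macrophages, was at 1.85 and 1.66 CPM in DE, 4.05 and 3.78 in AFE and 22.4 and 24.8 in LPO (13.4-fold higher, adjusted p = 3.11e-06), and AIF1, another macrophage gene, was at 0.363 and 0.245 CPM in DE, 8.41 and 9.57 in AFE and 8.79 and 8.91 in LPO (28.9-fold higher, adjusted p = 1.76e-05). The endothelial genes ERG, FLI1 and EMCN made up the other members that rose (9.25-fold higher, 6.56-fold higher and 8.29-fold higher; adjusted p = 0.00269, 0.00168 and 0.00106). Several other endothelial genes and a macrophage factor of the list were called lower. Further endothelial and macrophage genes did not pass the test, so neither group had a common direction. The pan-leukocyte gene PTPRC was at 0 in both DE libraries and at 0.0499 and 0 CPM in LPO, below the floor.

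Genes of gut and other endoderm organs showed no common direction, with 6 of 21 higher and 5 lower (3 lower without DE replicate 1 or DE replicate 2, 3 higher without LPO replicate 1). CDH17, an intestinal cadherin, was at 0.138 and 0.1402 CPM in DE, 0.375 and 0.534 in AFE and 40.9 and 39.2 in LPO (283-fold higher, adjusted p = 7.96e-07). The intestinal factor CDX2 was lower at the end, at 3.04 and 2.19 CPM in DE, 21.1 and 26.6 in AFE and 0.823 and 0.667 in LPO (3.51-fold lower, adjusted p = 0.00121), and so was the microvillus protein VIL1, at 82.7 and 89.5 CPM in DE, 15.2 and 18.8 in AFE and 3.09 and 4.27 in LPO (23.4-fold lower, adjusted p = 8.92e-07). CDX2 peaked in AFE, and VIL1 did not. BARX1, a stomach factor, was at 21.4 and 18.7 CPM in DE, 2.97 and 1.87 in AFE and 1.796 and 1.498 in LPO (12.1-fold lower, adjusted p = 1.34e-05). Thyroid, the other organ that uses NKX2-1, was represented by the receptor TSHR, which had 0 counts in DE and was at 0.1496 and 0.201 CPM in LPO, about the floor, and did not pass the test. Of 16 neural genes, 9 rose and 2 fell (4 rose without LPO replicate 1, and 5 without DE replicate 1 or LPO replicate 2). With all libraries, 56.2% of the neural list rose and 12.5% fell. Those that rose included NCAM1, a neural adhesion protein, at 13.4 and 7.87 CPM in DE, 51.7 and 45.2 in AFE and 216 and 221 in LPO (20.6-fold higher, adjusted p = 2.13e-06). MAP2, a microtubule protein of neurons, was at 1.12 and 0.596 CPM in DE, 70.9 and 68.7 in AFE and 59.2 and 55.2 in LPO (66.3-fold higher, adjusted p = 7.89e-07). NCAM1 stood in every LPO library above every AFE library, whereas MAP2 did not. The neuronal tubulin TUBB3 was at 152 and 127 CPM in DE, 8.36 and 8.62 in AFE and 13.04 and 14.8 in LPO (10.03-fold lower, adjusted p = 4.29e-07). Of 14 trophoblast genes, 8 rose and 5 fell (57.1% and 35.7%). GATA3, a factor of trophectoderm and other epithelia, was at 181 and 224 CPM in DE, 74.03 and 76.6 in AFE and 27.1 and 27.1 in LPO (7.45-fold lower, adjusted p = 2.75e-06). PPARG, a nuclear receptor of placenta and fat, was at 1.23 and 1.79 CPM in DE, 0.669 and 0.9504 in AFE and 19.6 and 20.8 in LPO (13.4-fold higher, adjusted p = 1.07e-04).

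BMP signalling genes were the one signalling list with more members lower than higher, 13 of 29 against 8 (44.8% and 27.6%; median log2 change −0.37, or 0.07 with limma on log2 FPKM at a pseudocount of 0.1). Among the ligands, BMP4, which is active at lung-bud tips, was at 247 and 165 CPM in DE, 44.8 and 39.7 in AFE and 47.5 and 46.9 in LPO (4.37-fold lower, adjusted p = 3.76e-05). Its close relative BMP2 was at 59.5 and 52.4 CPM in DE, 2.07 and 2.98 in AFE and 7.13 and 7.72 in LPO (7.53-fold lower, adjusted p = 1.09e-05). BMP7, of another ligand group, was at 90.6 and 127 CPM in DE, 35.7 and 37.3 in AFE and 24.4 and 28.2 in LPO (4.14-fold lower, adjusted p = 2.83e-05). All 3 ligands were highest in both DE libraries, whereas the other BMP ligands of the list did not pass the test. The secreted regulator BMPER was at 167 and 179 CPM in DE, 2.203 and 1.65 in AFE and 14.1 and 13.8 in LPO (12.4-fold lower, adjusted p = 1.13e-05). Of the response genes, the inhibitory SMAD6 was at 386 and 465 CPM in DE, 50.2 and 42.9 in AFE and 24.3 and 22.8 in LPO (18.1-fold lower, adjusted p = 2.62e-07). ID1, a direct target of the pathway, was at 638 and 703 CPM in DE, 405 and 421 in AFE and 137 and 138 in LPO (4.87-fold lower, adjusted p = 4.12e-07). MSX2, a homeobox target, was at 152 and 185 CPM in DE, 14.4 and 13.1 in AFE and 11.6 and 12.8 in LPO (13.8-fold lower, adjusted p = 5.55e-07). These 3 fell, and the response genes ID2 and BAMBI were called lower too. Another inhibitory SMAD of the list was called higher, and some response genes did not pass the test. Of the SMADs that carry the signal, SMAD9 rose (1.37 and 0.823 CPM in DE and 7.095 and 6.95 CPM in LPO, 6.402-fold higher, adjusted p = 0.00154), while SMAD1 was called lower (log2 change −1.27). The receptor BMPR2 rose, at 7.51 and 7.797 CPM in DE, 3.61 and 3.602 in AFE and 38.4 and 38.5 in LPO (5.02-fold higher, adjusted p = 2.28e-06).

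WNT genes went both ways, with more members higher than lower: of 41 tested, 23 rose and 9 fell (median log2 change 1.15). AXIN2, a feedback scaffold, was at 7.696 and 6.48 CPM in DE, 14.6 and 14.7 in AFE and 56.7 and 55.2 in LPO (7.89-fold higher, adjusted p = 1.19e-06). LEF1, a nuclear effector, was at 12.2 and 10.5 CPM in DE, 9.73 and 10.6 in AFE and 71.4 and 69.1 in LPO (6.19-fold higher, adjusted p = 4.79e-05). LGR4, a receptor for R-spondins, was at 15.2 and 15.3 CPM in DE, 23.9 and 18.96 in AFE and 177 and 177 in LPO (11.6-fold higher, adjusted p = 4.00e-07). In all 3 the LPO libraries stood above both earlier stages. NKD2, a feedback inhibitor inside the cell, fell (71.9 and 73.4 CPM in DE and 43.7 and 43.01 CPM in LPO, 1.68-fold lower, adjusted p = 1.23e-04), and some feedback genes of the list did not pass the test. The secreted inhibitor WIF1 was at 0 and 0 CPM in DE, 4.81 and 3.201 in AFE and 73.3 and 76.1 in LPO (at least 358-fold higher, adjusted p = 7.42e-05). WNT5A, a ligand of lung mesenchyme and epithelium, was at 2.13 and 1.23 CPM in DE, 4.81 and 5.22 in AFE and 23.6 and 25.7 in LPO (14.7-fold higher, adjusted p = 2.36e-04). WNT11, a ligand of the noncanonical branch, was at 68.5 and 107 CPM in DE, 32.2 and 32.5 in AFE and 9.56 and 10.8 in LPO (8.64-fold lower, adjusted p = 1.27e-05). Ligands thus went both ways. WNT2B, the ligand that with WNT2 induces lung, was at 11.4 and 9.71 CPM in DE, 0.392 and 0.4502 in AFE and 0.362 and 0.201 in LPO (37.2-fold lower, adjusted p = 4.48e-04). WNT2 was close to the floor in both stages (0.0692 and 0.123 CPM in DE and 0.399 and 0.151 CPM in LPO).

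FGF genes changed their ligands. FGF8, a ligand of gastrulation, was at 10.1 and 10.99 CPM in DE, 0 and 0.167 in AFE and 0 and 0 in LPO (at least 70.2-fold lower, adjusted p = 6.56e-05). FGF17, its close relative, was at 9.17 and 6.92 CPM in DE, 0.457 and 0.317 in AFE and 0.449 and 0.277 in LPO (22.03-fold lower, adjusted p = 1.06e-05). FGF2, a ligand of broad use, was at 6.55 and 5.33 CPM in DE, 30.1 and 33.5 in AFE and 108 and 99.5 in LPO (17.5-fold higher, adjusted p = 2.97e-07). FGF8 and FGF17 were high in DE alone of these stages, and FGF2 was high in LPO. FGF10, the mesenchymal ligand of lung branching, did not pass the test (4.34 and 5.38 CPM in DE and 3.64 and 4.204 CPM in LPO, log2 change −0.31, SE 0.285, adjusted p = 0.374). Its receptor FGFR2 rose (42.8 and 42.6 CPM in DE and 63.2 and 63.1 CPM in LPO, 1.48-fold higher, adjusted p = 3.02e-04), and FGFR4 fell (61.2 and 61.2 CPM in DE and 10.7 and 11.6 CPM in LPO, 5.47-fold lower, adjusted p = 7.82e-07). The feedback inhibitors SPRY1 and SPRY4 rose (8.95-fold higher, adjusted p = 3.24e-06, and 5.55-fold higher, adjusted p = 5.10e-05), whereas SPRY2, of the same family, fell (1.61-fold lower, adjusted p = 0.00698), a call that ended with the 5 FPKM filter (log2 change −0.39) and with limma on log2 FPKM (−0.22 with a pseudocount of 1). Also higher was the immediate-early factor EGR1 (7.16 and 4.56 CPM in DE and 116 and 107 CPM in LPO, 18.99-fold higher, adjusted p = 4.96e-06). Over the list, 16 of 33 rose and 8 fell (median log2 change 0.56).

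Of the signalling lists, NODAL, activin and TGF-beta genes had the highest share called higher, 19 of 26 with 4 lower (73.1% and 15.4%; median log2 change 0.98). NODAL itself and the activin inhibitor FST were among the 4 called lower. NODAL overlaps a gene with more counts than its own, so its call is uncertain. TGFB2, a TGF-beta ligand, was at 0.726 and 0.385 CPM in DE, 3.33 and 2.73 in AFE and 96.96 and 97.7 in LPO (174-fold higher, adjusted p = 6.10e-07). The receptor TGFBR2 was at 0.917 and 1.104 CPM in DE, 4.91 and 3.47 in AFE and 49.5 and 52.1 in LPO (50.2-fold higher, adjusted p = 5.73e-07). The target TGFBI was at 37.6 and 35.1 CPM in DE, 40.4 and 41.3 in AFE and 715 and 719 in LPO (19.7-fold higher, adjusted p = 7.57e-08). These 3 genes stood higher in both LPO libraries than in any DE or AFE library. SMAD3, which carries the signal, was at 16.9 and 15.2 CPM in DE, 62.9 and 58.9 in AFE and 192 and 198 in LPO (12.2-fold higher, adjusted p = 1.96e-07), while its partner SMAD2 was lower (82.01 and 84.8 CPM in DE and 58.5 and 53.7 CPM in LPO, log2 change −0.57, SE 0.0891, adjusted p = 7.42e-04), a call that ended with limma on log2 FPKM (log2 change −0.11 with a pseudocount of 1).

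Hedgehog, retinoic acid and Notch genes were higher in 21 of 35 and lower in 9 (median log2 change 2.1). Of the Hedgehog effectors, GLI2 was at 0.899 and 0.491 CPM in DE, 2.87 and 3.57 in AFE and 10.5 and 11.8 in LPO (15.97-fold higher, adjusted p = 1.14e-05). GLI3, which is mainly a repressor, was at 3.98 and 5.82 CPM in DE, 42.1 and 43.9 in AFE and 55.8 and 55.2 in LPO (11.3-fold higher, adjusted p = 2.02e-06). HHIP, which binds the ligands, fell (87.6 and 65.6 CPM in DE and 7.39 and 8.18 CPM in LPO, 9.84-fold lower, adjusted p = 1.32e-05), and of the ligands IHH fell and SHH rose. Of the enzymes that break down retinoic acid, CYP26A1 was at 99.2 and 60.7 CPM in DE, 705 and 694 in AFE and 11.3 and 10.9 in LPO (7.201-fold lower, adjusted p = 1.34e-05). Its relative CYP26B1 was at 0.588 and 1.24 CPM in DE, 169 and 171 in AFE and 422 and 426 in LPO (462-fold higher, adjusted p = 7.47e-07). CYP26A1 peaked in AFE and CYP26B1 was highest in LPO. ALDH1A1, which makes retinoic acid, was at 0.761 and 0.876 CPM in DE, 44.7 and 45.7 in AFE and 51.5 and 52 in LPO (63.1-fold higher, adjusted p = 1.36e-07). The Notch ligand JAG1 was at 4.65 and 4.38 CPM in DE, 15.6 and 16.3 in AFE and 74.4 and 72.5 in LPO (16.3-fold higher, adjusted p = 1.89e-07). The receptor NOTCH2 was at 22.7 and 22.6 CPM in DE, 27.1 and 22.8 in AFE and 115 and 118 in LPO (5.15-fold higher, adjusted p = 1.45e-06). Both rose, but the Notch target HES1 fell, at 97.4 and 96.2 CPM in DE, 138 and 141 in AFE and 55.8 and 57.5 in LPO (1.71-fold lower, adjusted p = 5.77e-05). Further ligands and another target of the list were called lower as well. A different target was called higher, and some targets did not pass the test, so Notch targets had no common direction. CYP26B1 without DE replicate 2 had a log2 change of 9.51, against 8.85 with all libraries. YAP and TEAD genes split 7 higher and 6 lower of 18 (38.9% and 33.3%, near the shares of all genes). F3, tissue factor, was at 7.696 and 3.52 CPM in DE, 43.1 and 47.6 in AFE and 382 and 385 in LPO (68.3-fold higher, adjusted p = 2.09e-06; log2 change 6.76 without DE replicate 1 and 6.09 with all libraries). TEAD4 was at 84.1 and 84.9 CPM in DE, 101 and 116 in AFE and 10.96 and 8.66 in LPO (8.61-fold lower, adjusted p = 7.50e-07).

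Defence genes were higher in the organoids. Of 26 epithelial defence, cytokine and NF-kappaB genes, 18 rose and 3 fell (69.2% and 11.5%; median log2 change 2.62), and of 25 interferon response genes, 15 rose and 1 fell (60% and 4%; median 1.98). CXCL8, a neutrophil attractant, was at 1.87 and 0.788 CPM in DE, 3.199 and 3.45 in AFE and 153 and 151 in LPO (114-fold higher, adjusted p = 4.18e-06). CCL2, a monocyte attractant, was at 0.553 and 0.894 CPM in DE, 2.99 and 1.68 in AFE and 106 and 108 in LPO (147-fold higher, adjusted p = 3.27e-06). TNFAIP3, a brake on NF-kappaB, was at 4.15 and 2.07 CPM in DE, 2.17 and 2.03 in AFE and 53.7 and 57.5 in LPO (17.9-fold higher, adjusted p = 1.12e-05). The log2 change of CXCL8 without DE replicate 1 was 7.59 (6.84 with all libraries) and that of TNFAIP3 4.75 (4.16). The antiviral IFI44 was at 0 and 0 CPM in DE, 0.212 and 0.4502 in AFE and 15.9 and 14.8 in LPO (at least 73.5-fold higher, adjusted p = 4.11e-05). MMP7, a protease of lung epithelium that cleaves defensins and matrix, was at 0 and 0 CPM in DE, 1.47 and 2.301 in AFE and 288 and 288 in LPO (at least 1379.5-fold higher, adjusted p = 1.17e-06). The members that fell were S100A11, S100A14 and WFDC2 of the first list and IRF7 of the second, and WFDC2 lost its call with limma on log2 FPKM (log2 change −0.22 with a pseudocount of 1).

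Cell cycle genes fell almost throughout. Of 39 tested, 33 fell and 3 rose (84.6% and 7.69%; median log2 change −1.86). CDT1, which licenses replication origins, was at 93.6 and 109 CPM in DE, 119 and 119.7 in AFE and 3.45 and 4.86 in LPO (24.3-fold lower, adjusted p = 5.18e-07). CDC20, an activator of mitotic exit, was at 343 and 364 CPM in DE, 281 and 297 in AFE and 31.7 and 32.99 in LPO (10.9-fold lower, adjusted p = 7.57e-08). BIRC5, survivin, was at 166 and 166 CPM in DE, 179 and 176 in AFE and 16.2 and 15.2 in LPO (10.6-fold lower, adjusted p = 8.50e-08). AFE stood near DE in each of these 3, and LPO far below both. The helicase subunit MCM4 was at 336 and 277 CPM in DE, 218 and 217 in AFE and 38 and 39.7 in LPO (7.89-fold lower, adjusted p = 3.24e-07). The 3 members that rose are inhibitors of cyclin-dependent kinases, although another inhibitor of the list, CDKN1C, fell (50.4 and 49.6 CPM in DE and 26.3 and 24.6 CPM in LPO, 1.97-fold lower, adjusted p = 7.25e-04). CDKN1A was at 46.3 and 39.6 CPM in DE, 122 and 118 in AFE and 194 and 191 in LPO (4.48-fold higher, adjusted p = 7.16e-07). CDKN2B, of the INK4 group, was at 0.363 and 0.526 CPM in DE, 8.91 and 8.84 in AFE and 31.6 and 37.3 in LPO (77.3-fold higher, adjusted p = 1.56e-06). CDKN1A and CDKN2B were higher at each later stage. CDKN2A, the genomic neighbour of CDKN2B, was at 0 and 0 CPM in DE, 0.996 and 1.05 in AFE and 1.097 and 1.08 in LPO (at least 5.22-fold higher, adjusted p = 0.00141).

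Cholesterol and low-oxygen genes each divided into members that rose and members that fell. Of 23 cholesterol genes, 7 rose and 12 fell (30.4% and 52.2%; median log2 change −0.71). FDPS, an enzyme of the mevalonate branch, was at 562 and 666 CPM in DE, 174 and 187 in AFE and 56.2 and 63.2 in LPO (10.3-fold lower, adjusted p = 3.24e-07). IDI1, which isomerises the isoprenoid unit, was at 987 and 931 CPM in DE, 353 and 345 in AFE and 226 and 219 in LPO (4.32-fold lower, adjusted p = 2.77e-07). Both were highest in DE and lowest in LPO. CYP51A1, which demethylates lanosterol, was at 108 and 109 CPM in DE, 67.3 and 63.7 in AFE and 275 and 279.6 in LPO (2.56-fold higher, adjusted p = 1.18e-06). Of 30 low-oxygen and glycolysis genes, 14 rose and 9 fell (46.7% and 30.0%; median log2 change 0.34). Outside glycolysis, EGLN3, an oxygen sensor, was at 28.3 and 13.9 CPM in DE, 72.1 and 76.8 in AFE and 579 and 581 in LPO (27.4-fold higher, adjusted p = 4.66e-06). NDRG1, a stress-response gene, was at 90.5 and 45.3 CPM in DE, 147 and 149 in AFE and 1223 and 1271 in LPO (18.4-fold higher, adjusted p = 1.92e-05). The vessel growth factor VEGFA was at 81.8 and 73.8 CPM in DE, 49.2 and 47.3 in AFE and 554 and 560.1 in LPO (7.16-fold higher, adjusted p = 1.87e-07). Several others outside glycolysis were called higher, but a carbonic anhydrase of the list was called lower. BNIP3 did not pass the test (log2 change −0.24, adjusted p = 0.343). Its sign depended on the DE library kept, with a log2 change of 0.21 without DE replicate 1 and −0.56 without DE replicate 2. EGLN3 had a log2 change of 4.78 with all libraries and 5.38 without DE replicate 1. The glycolytic enzymes went both ways. HK2, a hexokinase of the first step, was at 122 and 85.7 CPM in DE, 52.4 and 55.5 in AFE and 317 and 311 in LPO (3.02-fold higher, adjusted p = 4.62e-05), and its relative HK1 rose too (1.63-fold higher, adjusted p = 0.00557), while several enzymes did not pass the test. TPI1, triosephosphate isomerase, was at 2063 and 1801 CPM in DE, 1193 and 1194 in AFE and 791 and 788 in LPO (2.45-fold lower, adjusted p = 3.34e-06). PKM, the pyruvate kinase, was at 6013 and 5164 CPM in DE, 4075 and 4131 in AFE and 3135 and 3205 in LPO (1.76-fold lower, adjusted p = 2.17e-05). Lower as TPI1 and PKM were, the glucose transporter SLC2A1 was at 1774 and 1534 CPM in DE, 429 and 416 in AFE and 857 and 873 in LPO (1.91-fold lower, adjusted p = 3.35e-05). 

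A class of genes was shared by the ends and low between them. By the rule of a called change of 2-fold or more in both DE against AFE and LPO against AFE, 777 genes were lower in AFE than at either end (4.02% of 19346). Higher in AFE than at either end, by the same thresholds, were 503 (2.6%). The comparisons share the AFE libraries, so a low AFE value enters both. DE exceeded AFE by 2-fold or more in 1616 genes in all (8.35%) and LPO exceeded it in 4384 (22.7%), while 1792 were lower in DE than in AFE (9.26%) and 3985 lower in LPO than in AFE (20.6%). Of the 777, 334 were not called between DE and LPO (43.0%), 307 were higher in LPO and 136 lower, and 408 lay within 2-fold. Their median log2 change was 2.09 for DE against AFE, 2.66 for LPO against AFE and 0.34 for LPO against DE.

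The 12 named members, chosen for the largest smaller change among those at 5 FPKM or more at both ends, included several genes of matrix and signalling. MATN4, a matrix adaptor, was at 17.7 and 16.9 CPM in DE, 0.637 and 0.383 in AFE and 62.7 and 61.6 in LPO, with log2 changes against AFE of 5.08 in DE and 6.92 in LPO. DKK1, a secreted WNT inhibitor, was at 30.2 and 16.3 CPM in DE, 0.457 and 0.467 in AFE and 11.2 and 10.8 in LPO (5.65 and 4.57). MFAP2, a microfibril protein, was at 89.3 and 86.5 CPM in DE, 4.59 and 4.002 in AFE and 50.2 and 53.7 in LPO (4.35 and 3.6). CLIC6, a chloride channel relative, was at 606 and 606 CPM in DE, 6.41 and 5.44 in AFE and 73.2 and 67.96 in LPO (6.68 and 3.57). In these genes every DE and LPO library lay above both AFE libraries, yet DE and LPO were not alike: CLIC6 was higher in DE and MATN4 in LPO. PDGFRA, whose levels are given above, had changes of 3.08 and 3.32. ZIC2, a zinc-finger factor of early patterning, was at 218 and 178 CPM in DE, 3.35 and 2.43 in AFE and 25.9 and 24.4 in LPO (6.09 and 3.12). AEBP1, a collagen-binding protein, was at 39.7 and 34.7 CPM in DE, 3.75 and 4.92 in AFE and 63.99 and 65.9 in LPO (3.1 and 3.9). LHFPL2, SPSB1, LRRC4B, SAMD11 and ERO1A completed the 12. SAMD11 overlaps a gene with more counts than its own, so its membership is uncertain. ERO1A, the oxidase that forms disulfide bonds and responds to low oxygen, was at 203 and 17.7 CPM in DE, 5.19 and 7.55 in AFE and 1228 and 1209 in LPO. Its DE libraries differed by over 10 times, and the log2 change in LPO against DE was 6.11 without DE replicate 1, 2.6 without DE replicate 2 and 3.46 with all libraries.

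**Figure D4:**
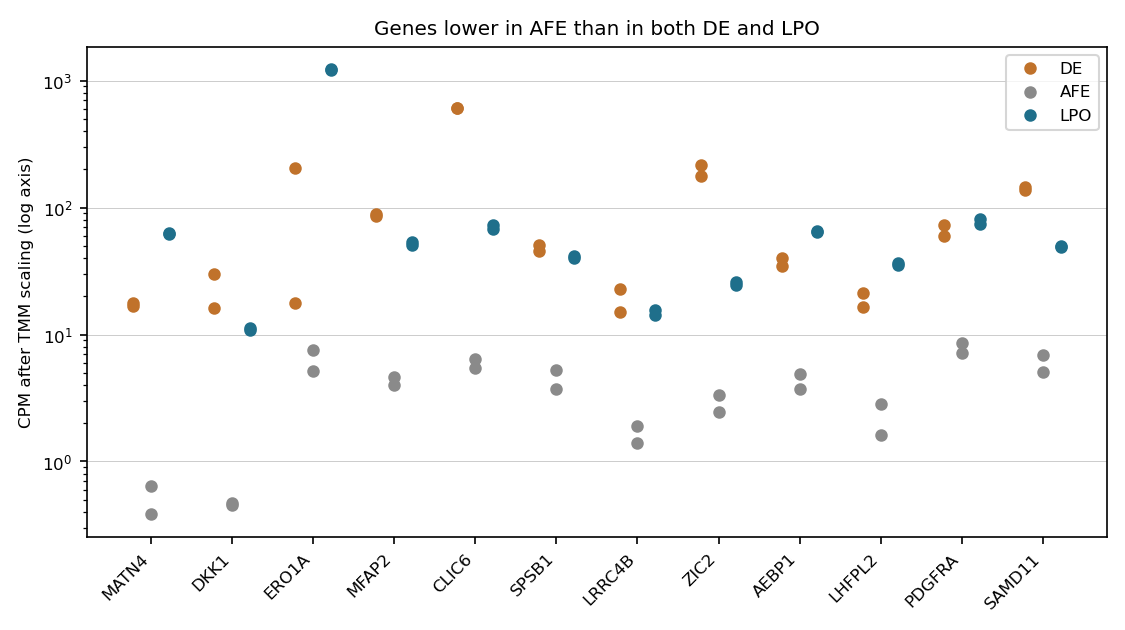
CPM per library (log axis) of the 12 named genes lower in AFE (grey) than in both DE (orange) and LPO (blue); each dot is 1 library. All DE and LPO dots lie above the AFE dots of the same gene; the DE dots of ERO1A, at 203 and 17.7 CPM, lie farthest apart.

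Most of the gene lists, which were chosen with earlier results known, had a larger share of members in this class than all genes did (4.02%). In the airway, gut and alveolar lists that share was 1 gene each (4.3%, 4.8% and 5.6%). The cell cycle, foregut, simple epithelium, pluripotency and trophoblast lists had no member in it. The shares were highest in the BMP, TGF-beta, low-oxygen and cholesterol lists. Primitive endoderm (21.7%) and FGF genes (18.2%) came next. Of 30 low-oxygen and glycolysis genes, 8 belonged to it (26.7%): ADM, SLC2A1, BNIP3, ANKRD37, PFKFB3, P4HA1, ALDOC and ENO2. PFKFB3, a regulator of glycolysis, was at 227 and 127 CPM in DE, 74.8 and 78.9 in AFE and 715 and 735 in LPO, with log2 changes against AFE of 1.2 in DE and 3.24 in LPO. ADM, the vessel-dilating peptide adrenomedullin, was at 81.3 and 73.7 CPM in DE, 13.5 and 12.3 in AFE and 127 and 127 in LPO (2.59 and 3.3). Over the list DE replicate 1 stood above DE replicate 2, with summed FPKM of 16468 and 12384, and its count in the class was 5 without DE replicate 1 and 9 without DE replicate 2, a check added after the data were seen. ANKRD37 overlaps a gene with more counts than its own, so its membership is uncertain. Of 23 cholesterol genes, 6 belonged (26.1%, HMGCS1 among them). HMGCS1, an early enzyme of the pathway, was at 305 and 277 CPM in DE, 118 and 121 in AFE and 428 and 414 in LPO (1.28 and 1.82). Of 29 BMP genes, 9 belonged (31.0%), including SMAD1, BMP2 and BAMBI, and of 26 TGF-beta genes, 7 (26.9%), including SKIL and PMEPA1. A member shared by both lists is counted in each. The FGF targets ETV4 and ETV5 and the phosphatase DUSP6 belonged too: ETV4 was at 47.9 and 38 CPM in DE, 15.5 and 14.7 in AFE and 51.6 and 53.5 in LPO (1.5 and 1.8). ETV5 was at 25.9 and 25.4 CPM in DE, 7.62 and 6.503 in AFE and 54.1 and 60.6 in LPO (1.86 and 3.02). So did the lung factors TBX2 and TBX3, TBX3 at 73.3 and 83.9 CPM in DE, 10.9 and 9.32 in AFE and 63.2 and 58.97 in LPO (2.96 and 2.59).

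Genes higher in AFE than at either end were frequent among plasma protein genes (6 of 28, 21.4%) and foregut patterning genes (6 of 30, 20%). They included TF, SERPINA1, ITIH2, F2, MTTP and FABP1 of the former and HOXA2, HOXB1, HOXB2, RARB and DLK1 of the latter, although RARB overlaps a gene with more counts than its own. SERPINA1, a protease inhibitor of plasma, had 0 counts in DE and was at 12.96 and 16.8 CPM in AFE and 0 and 0.101 CPM in LPO.

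For most genes AFE lay nearer to DE than to LPO, or beyond it. Of 6114 genes higher in LPO than in DE, the AFE mean lay between the ends in 3529 (57.7%), below DE in 1997 (32.7%) and above LPO in 588 (9.6%). The median gene had covered 18.3% of the way from DE to LPO. Of 6009 genes lower in LPO, AFE lay between in 3068 (51.1%), above DE in 2353 (39.2%) and below LPO in 588 (9.8%), with a median of 10.4% of the way. These are descriptions with no test.

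**Figure D5:**
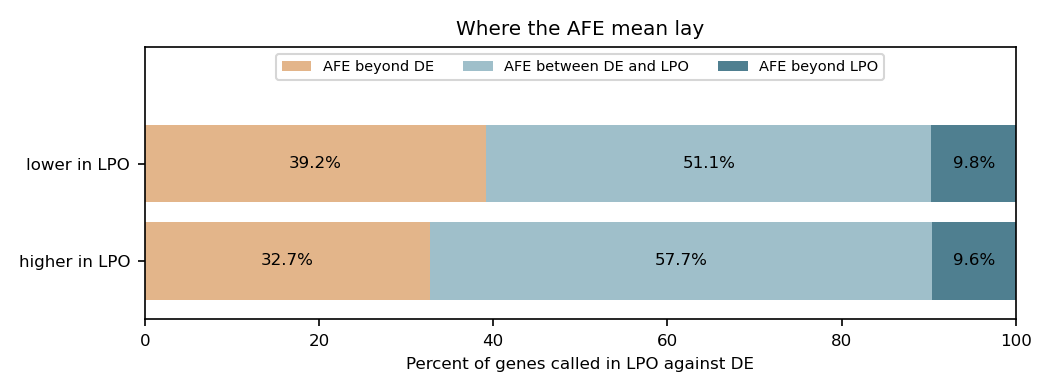
Share of the genes called higher or lower in LPO than in DE whose mean log2 CPM in AFE lay beyond the DE mean, between DE and LPO, or beyond the LPO mean. Between 51.1% and 57.7% had AFE between the ends, and 9.6% and 9.8% had it beyond LPO.

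The 10 genes with the largest fitted log2 rises among those reaching 5 FPKM in LPO were MMP7, COL6A3, ZIC4, ZIC1, WIF1, KCNE4, ADGRG2, NKX2-1, ITGB6 and KRT17. All 10 had 0 counts in both DE libraries, so their folds are lower bounds and their order is no ranking: POSTN, with counts in DE, rose by more than every one of these bounds. ZIC1, a zinc-finger factor of neural and mesodermal patterning, was at 0 and 0 CPM in DE, 1.18 and 0.467 in AFE and 102 and 94.7 in LPO (at least 470.0-fold higher, adjusted p = 1.12e-05). Its neighbour in the genome ZIC4 was at 0 and 0 CPM in DE, 0.653 and 0.884 in AFE and 142 and 147 in LPO (at least 694-fold higher, adjusted p = 5.99e-07). Both were under 2 CPM in AFE. KCNE4, a potassium channel subunit, was at 0 and 0 CPM in DE, 0.375 and 0.634 in AFE and 70.2 and 75.7 in LPO (at least 349-fold higher, adjusted p = 2.39e-06). ADGRG2, an adhesion receptor, was at 0 and 0 CPM in DE, 0.963 and 1.42 in AFE and 42.4 and 40.1 in LPO (at least 198-fold higher, adjusted p = 9.67e-07). In all, 31 genes with a symbol reached 5 FPKM or more in LPO with 0 counts in DE, and 10 reached it in DE with 0 counts in LPO.

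The largest fitted log2 falls among genes reaching 5 FPKM in DE were in VRTN, OTX2, GPX6, NAALAD2, NPPA, EOMES, POU5F1, APOC3, FGF8 and KLK8. Of these only POU5F1 had a count in LPO, so the others have lower bounds and no ranking, and SOX17 fell by more than all of those bounds but that of VRTN. VRTN, which sets vertebral number in pigs, was at 189 and 171 CPM in DE, 0.131 and 0.467 in AFE and 0 and 0 in LPO (at least 1197-fold lower, adjusted p = 7.82e-07). GPX6, a glutathione peroxidase, was at 45.1 and 108 CPM in DE, 0 and 0.534 in AFE and 0 and 0 in LPO (at least 508-fold lower, adjusted p = 1.10e-04). NAALAD2, a membrane peptidase, was at 66.7 and 75.5 CPM in DE, 2.32 and 2.73 in AFE and 0 and 0 in LPO (at least 473-fold lower, adjusted p = 2.56e-07). The DE libraries of GPX6 differed more than those of VRTN or NAALAD2. The serine protease KLK8 was at 8.18 and 6.38 CPM in DE, 0.392 and 0.784 in AFE and 0 and 0 in LPO (at least 48.4-fold lower, adjusted p = 3.09e-05).

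On the FPKM scale the most abundant gene changed as well. In DE it was KRT8 (13356 ± 540.1 FPKM, SD, n = 2), followed by KRT18 (10148 ± 884 FPKM) and APOA1 (8811 ± 141 FPKM). In LPO it was EEF1A1, a translation elongation factor (9081 ± 14.2 FPKM), which stood at 5607 ± 272 FPKM in DE. On the CPM scale EEF1A1 was at 13686 and 12796 CPM in DE and 15737 and 15769 CPM in LPO (log2 change 0.25, SE 0.0496, adjusted p = 0.00275).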

How the data were processed

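Per the labels' protocols, RNA for 8 pig libraries was extracted with Trizol, captured by its poly(A) tail, prepared with strand marking and sequenced in pairs on an Illumina NovaSeq. Tools named by the submitters' processing notes, with no roles, are HISAT2 2.2.1, StringTie 2.1.6 and cutadapt 1.9, besides edgeR and DESeq2. No genome build is stated in them. The deposited table holds the authors' estimated counts per gene, whole numbers that gather at multiples of 4 for a reason not given in the sources used here (4 counts are taken as about 1 read pair), and FPKM values by the authors. Whether counting used strand is not stated, so overlapping genes cannot always be told apart. Of 25578 genes, 15565 carry a symbol.

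Counts were tested as deposited with edgeR 4.0.16 in R 4.3.3 (TMM scaling, its filter on low counts, quasi-likelihood fit over 4 stage groups of 2 libraries, Benjamini-Hochberg adjustment over 19346 genes), after the procedure was tested on simulated data. Each gene is tested in that fit. Values outside it, such as shares and summed levels, carry no test, since with 2 libraries on each side the smallest exact permutation p is 0.333. Depth was 61748702 to 63210158 counts in DE and LPO, 66608214 and 67566269 in AFE, and 42251431 and 36004372 in PSC. Intervals and floors cover counting error only.

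The gene lists, and the members they hold, were chosen with earlier results of these data known. Named genes were the core panel, the 10 largest called rises and falls reaching 5 FPKM at the higher end, the most abundant genes, the leading called members of each list, and the 12 genes lower in AFE with the largest smaller change. A further 79 genes named were chosen after their values were seen, and some genes these rules select are not reported here. Alternatives were other scalings, filters, a stricter threshold, DESeq2 1.42.0, limma 3.58.1 on log2 FPKM with pseudocounts of 1, 0.5 and 0.1, a replicate block and leaving out each library. Sequences and promoters were not analysed here.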

Additional observations from a re-analysis of the deposited data

How the results depend on the processing

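Of 254 named genes, 12 lost a call under at least 1 alternative, 12 gained one and 227 kept direction and call under all. Of the 20 changes of sign among the named genes, all were in genes not called between DE and LPO. With limma on log2 FPKM at pseudocounts of 1, 0.5 and 0.1, the log2 change of LPO against DE was 0.26, 0.26 and 0.26 for BNIP3, 0.08, 0.1 and 0.13 for FGF10, 0.12, 0.13 and 0.14 for LRRC4B, 0.18, 0.19 and 0.2 for SPSB1, and 0.08, 0.08 and 0.08 for TBX3. With a filter of 5 FPKM in 2 libraries it was 0.06 for BNIP3 and 0.05 for SPSB1. Leaving out 1 library gave −0.56 to 0.21 for BNIP3, −0.03 to 0.31 for DUSP6 and −1.84 to 0.12 for DLK1. For BNIP3 both ends came from leaving out a DE library, −0.56 without DE replicate 2 and 0.21 without DE replicate 1. The 5 FPKM filter, which tests fewer genes, called 3997 higher in LPO, 2660 by 2-fold or more, 2431 lower by 2-fold or more, 466 lower in AFE than in both ends and 295 higher in AFE. With limma on log2 FPKM, which damps low genes, the count lower by 2-fold or more was 2144 at a pseudocount of 1 and 2420 at 0.5, the count lower in AFE than in both ends was 369 at 1, and the count higher in AFE was 262 at 1 and 335 at 0.5. The other alternatives kept each count of all genes that was taken under them within 1.5 times its value.

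Leaving out 1 library gave fewer called genes in every case, both higher and lower in LPO, and fewer genes in both AFE classes. Called genes with AFE between the ends were counted only when an AFE library was left out, and were fewer there as well. With 1 library in a stage, its spread is taken from the other stages. With the replicate number as a block, 11187 genes were called. Deviations of DE replicate 1 and LPO replicate 1 from their stage means correlated at −0.0136 across genes. That value cannot settle whether same-numbered libraries came from the same culture run, and the labels do not say. With 2 libraries a stage, the labels' silence on separate cultures and no protocol for the stages, differences between stages and between cultures or harvests cannot be told apart.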
